A study of Mus musculus with 44 samples.

Results

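Heme is built from glycine and succinyl-CoA by a chain of enzymes that begins and ends in the mitochondrion and passes through the cytosol between. The first enzyme, 5-aminolevulinate synthase, limits the flow in tissues other than red cell precursors, and its ubiquitous form is encoded by Alas1. Cytochrome P450 enzymes, which are abundant in kidney tubules, carry heme, and the microsomal ones take their electrons from the P450 reductase encoded by Por. The gene set described here holds 8 genes chosen by name: Alas1, Alad, Uros, Urod, Cpox, Ppox and Fech, which encode enzymes of heme synthesis, and Por. All 8 were among the 24733 genes with any value above 0 and among the 12874 whose mean reached 1 TPM (transcripts per 1000000, scaled for length), which were the genes tested.

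Polyadenylated kidney RNA had been sequenced from wild-type (WT) mice and from mice lacking the clock activator Bmal1 (also Arntl; the knockout, KO). Per the labels, all animals were of the 129SV strain, 8 to 12 weeks of post-natal age, and fed at night only. Each genotype was sampled at zeitgeber times (ZT, hours after lights on) 0, 4, 8, 12, 16 and 20, with 2 libraries (A and B) in each of the 12 groups, 24 libraries in all. The labels name no tissue-specific driver for the deletion. The labels do not say that the 2 libraries came from separate animals, so p-values measure the spread between these libraries, which may be technical. TPM is a level per transcript length scaled to the same total in each library, so it keeps no depth, and the number of reads behind a value is unknown.

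The library labelled KO ZT4 A went against its label. Nr1d1, a clock repressor that needs Bmal1, stood there at 23.8 TPM. The same gene measured 22.0 and 33.0 TPM in WT at ZT4, and 1.23 to 3.46 TPM in the other 11 KO libraries. Npas2, a paralogue of Clock, was at 6.68 TPM there and at 17.1 to 25.1 TPM in the other 11. Arntl itself ran from 4.19 to 6.28 TPM in KO and from 0.295 to 12.9 TPM in WT (median 3.37 TPM) over all times. At ZT4 it measured 6.16 and 4.71 TPM in WT, 6.28 TPM in the library labelled KO ZT4 A and 4.98 TPM in replicate B. The targeted gene therefore gave no check of the label at ZT4. A second library, KO ZT12 replicate A, held the Y-linked Ddx3y at 0.0990 TPM, while the WT libraries held 11.7 to 15.7 TPM. Of the other Y-linked markers, the lowest KO values were 0.655 TPM for Uty and 0.288 TPM for Eif2s3y. For Kdm5d the lowest KO value was 2.27 TPM, against 3.74 to 4.63 TPM in WT. The female marker Xist had no value. Results for the 8 genes were refitted without each library in turn, and those for the gene lists without the library labelled KO ZT4 A. The gene lists were not refitted without KO ZT12 replicate A. Markers of kidney tubules were present throughout (proximal tubule markers summed to 3454 to 4710 TPM in WT and 2991 to 4063 TPM in KO). Those of the adjacent adrenal gland were under 1 TPM on average for each of the 6 genes. Mitochondrially encoded transcripts took 38.0% to 42.5% of TPM in WT and 32.3% to 40.3% in KO, and their part in the TPM differences was tested only by the scaling without them.

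Promoter stretches are shown for the 4 members whose level differed between genotypes and for the members whose promoter held an E-box, the element bound by Bmal1 with its partners. Sequences are from RefSeq (GRCm38.p6), 5′ to 3′ on the gene's own strand, and positions count back from the annotated start. The stretch of Cpox is chr16:58669958-58670207 (plus strand, positions -250 to -1). That of Ppox is chr1:171281194-171281436 (minus strand, -250 to -8), and that of Por is chr5:135688895-135689035 (plus strand, -250 to -110); bases in annotated exons were left out. Alas1 is shown by 30 bases at chr9:106247906-106247935 (minus strand), which lie in an annotated exon of another Alas1 transcript. The E-box stretches are chr4:62520151-62520180 for Alad, chr7:133709528-133709545 for Uros and chr4:116994445-116994474 for Urod, all on the minus strand. Capitals mark matches to a searched motif.
Cpox: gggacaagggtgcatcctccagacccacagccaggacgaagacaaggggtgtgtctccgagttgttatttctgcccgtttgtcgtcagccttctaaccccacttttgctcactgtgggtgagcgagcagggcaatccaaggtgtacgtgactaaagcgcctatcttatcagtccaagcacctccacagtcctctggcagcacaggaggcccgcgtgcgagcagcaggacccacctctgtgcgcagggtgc
Ppox: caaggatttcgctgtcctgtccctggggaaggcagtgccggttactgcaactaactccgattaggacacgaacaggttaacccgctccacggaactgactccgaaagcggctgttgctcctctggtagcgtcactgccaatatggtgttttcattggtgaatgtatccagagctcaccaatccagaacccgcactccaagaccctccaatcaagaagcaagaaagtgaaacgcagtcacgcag
Por: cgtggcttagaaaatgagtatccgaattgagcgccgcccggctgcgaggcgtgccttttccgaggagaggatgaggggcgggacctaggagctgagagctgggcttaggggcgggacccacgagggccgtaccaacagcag
Alas1, NRF1 core: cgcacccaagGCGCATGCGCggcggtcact
Alad, E-box: gctccgaatgccCACGTGgaccccctcggg
Uros, E-box: CACGTGtgctttctcacc
Urod, E-box: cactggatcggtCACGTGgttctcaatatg

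The motifs were searched on both strands in the 250 bases before each of 32851 RefSeq starts. RefSeq gave 10 such windows for 7 of the members. The E-box CACGTG was found in 4 of these 10 windows (both of Alad, 1 of Uros and that of Urod) and in 6.02% of all windows. The core of the NRF1 element, GCATGCGC, was found in 1 of the 10 (Alas1, as overlapping matches on the 2 strands from -195 to -186) and in 2.26% of all. No member window held the D-boxes TTATGTAA or TTACGTAA (0.931% of all windows), the receptor half-site AGGTCA (14.0%) or the sterol element TCACNCCAC (1.05%). Thus none of the searched motifs stood in the windows of Cpox, Ppox or Por. The Por window lies inside the gene as annotated in GENCODE M21, which begins at 135670033 on the plus strand. The bases before that start were not searched for Por. A match is a run of letters and no evidence of binding.

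Over all times, 4 of the 8 genes differed between genotypes. Cpox, Por and Alas1 were lower in KO and Ppox was higher, while Alad, Uros, Urod and Fech did not pass the test. The test was limma on log2(TPM + 0.1) with time in the model, with p-values adjusted over all 12874 genes and a threshold of 0.05. By the same test, 60.9% of all genes passed, 50.9% higher in KO and 10% lower in KO. The members therefore passed about as often as other genes, and 3 of the 4 lay in the direction taken by the smaller share. The median difference of KO minus WT was -0.07 log2 units over the members and 0.15 over all genes. Median-of-ratios scaling moved the median of all genes to 0.00 and the share of calls that were higher in KO from 83.6% to 49.9%. Under that scaling 5700 of the 12874 genes passed. Of the members 7 passed, 1 higher and 6 lower, and Cpox, Por, Alas1 and Ppox kept their directions. With TPM as deposited, these 4 passed in each of the 24 fits that left out 1 library, KO ZT4 replicate A and KO ZT12 replicate A among them. In bulk tissue, fewer cells of a type and less RNA per cell cannot be told apart.

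**Figure D1:**
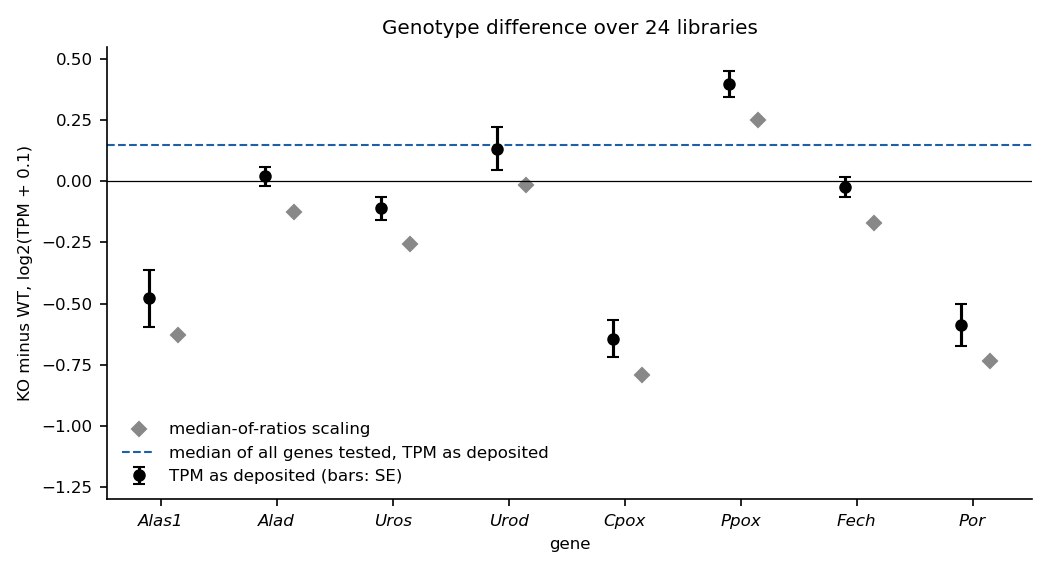
Difference of KO minus WT on the log2(TPM + 0.1) scale (y axis) for each gene (x axis), black points with standard errors for TPM as deposited, grey diamonds after median-of-ratios scaling. Cpox (-0.64), Por (-0.59) and Alas1 (-0.48) lie below zero and Ppox (0.40) above the dashed line, which is the median of all genes tested (0.15).

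Alas1 encodes the first and rate-limiting enzyme (chromosome 9, 106233455 to 106248654, minus strand, GRCm38). Its level swung through the day in WT and less high in KO. At ZT0 the WT pair gave 90.2 and 82.1 TPM and the KO pair 79.8 and 59.1 TPM. At ZT4 these were 40.2 and 61.5 TPM against 54.6 and 46.0 TPM, and at ZT8 53.0 and 60.0 TPM against 34.5 and 49.99 TPM. Up to this time the genotypes overlapped only at ZT4. The differences at ZT0 and ZT8 were -0.33 and -0.44 log2 units, and neither passed (limma adjusted p = 0.393 and 0.246). At ZT12 the WT pair gave 90.8 and 87.6 TPM and the KO pair 53.5 and 47.0 TPM. At ZT16 the WT libraries reached 152 and 134 TPM, while the KO libraries were at 85.0 and 59.7 TPM. At ZT20 the values were 87.9 and 113 TPM in WT and 66.8 and 99.7 TPM in KO, and the genotypes overlapped again.

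Averaged over the day, Alas1 stood at 87.7 ± 32.9 TPM in WT and 61.3 ± 18.6 TPM in KO (SD, n = 12 each). The difference was -0.48 log2 units (SE 0.12, limma adjusted p = 0.0018), with the KO mean lower at 6 of 6 times. By single times, Alas1 passed at ZT12 (-0.83, SE 0.25, adjusted p = 0.0184) and ZT16 (-1.002, SE 0.25, adjusted p = 0.0130). These single-time calls rest on 2 libraries a group: that at ZT12 was lost without any 1 of its 4 libraries (adjusted p 0.0595 to 0.0767), and that at ZT16 without WT ZT16 replicate A (0.104) or KO ZT16 replicate B (0.0973).

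The daily rhythm of Alas1 was the largest among the 8 genes in both genotypes. A fitted 24-hour cosine rose from trough to peak by 1.38 log2 units in WT (SE 0.19, peak at ZT 17.3, limma adjusted p = 0.000316), in the dark phase when the mice were fed. Of all genes tested, 3.08% had a fitted WT swing at least that large. In KO the swing was 0.97 log2 units (SE 0.19, peak at ZT 19.9, adjusted p = 0.0195). Mean levels ran from 50.8 TPM at ZT4 to 143 TPM at ZT16 in WT, a ratio of 2.81, and from 42.2 TPM at ZT8 to 83.3 TPM at ZT20 in KO, a ratio of 1.97. The difference between the 2 rhythms did not pass (adjusted p = 0.248, unadjusted 0.0149). The KO rhythm was lost in a fit of the 12 KO libraries alone (adjusted p = 0.107), with time as a factor (0.186), and without KO ZT8 replicate A (0.0637) or KO ZT20 replicate B (0.0588).

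**Figure D2:**
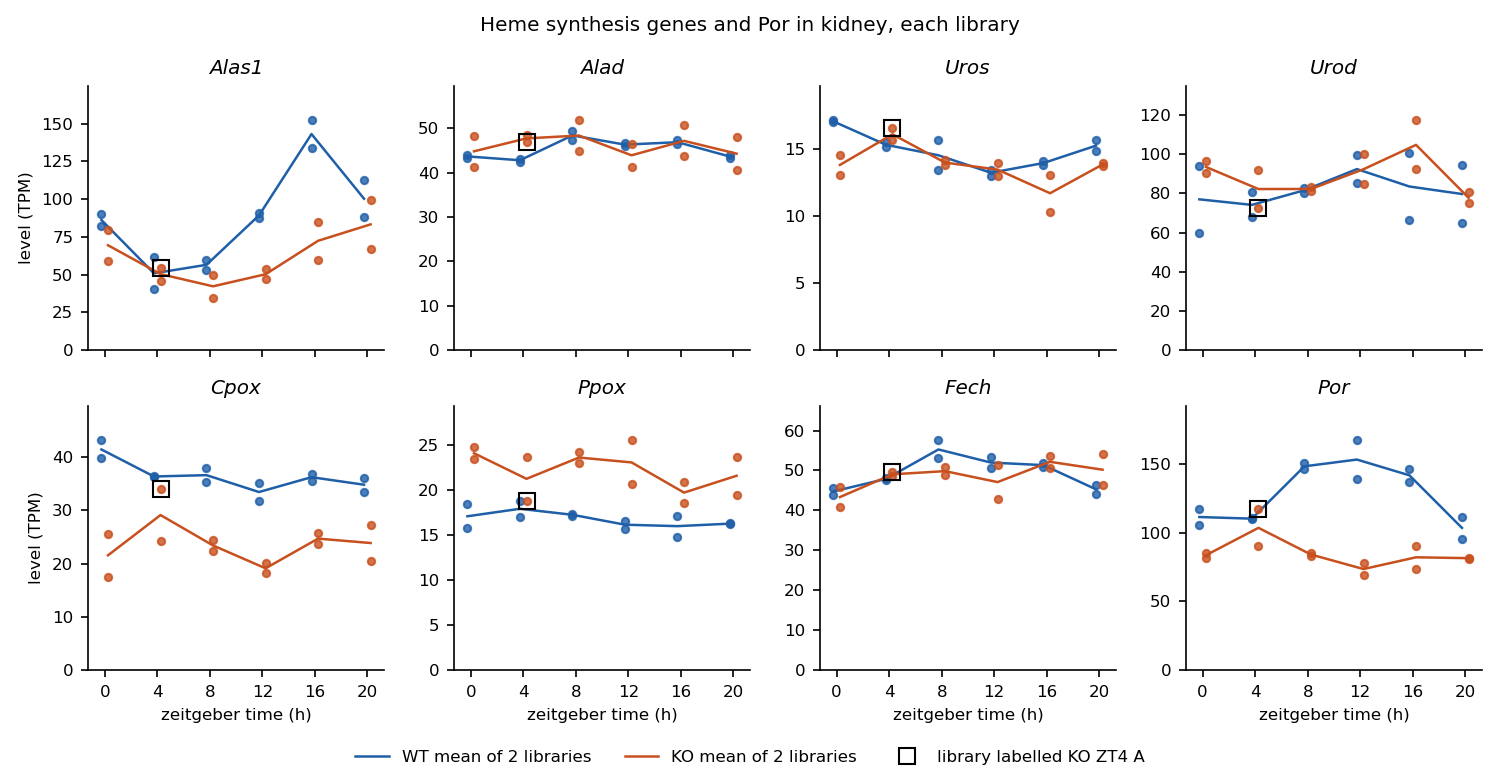
Level in TPM (y axis) of each gene at 6 zeitgeber times (x axis) in WT (blue) and KO (orange); points are single libraries, lines join the means of 2 libraries, and the black square marks the library labelled KO ZT4 A. WT Alas1 peaks at ZT16 (152 and 134 TPM), WT Por is high from ZT8 to ZT16, and KO Cpox lies below every WT value except in the marked library.

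Of the 7 Alas1 transcripts tested, all 7 had a negative difference and 3 passed. The coding transcript Alas1-201 carried 43.1% of the gene's TPM and fell from 38.3 ± 15.3 TPM in WT to 25.9 ± 8.97 TPM in KO (-0.52 log2 units, SE 0.13, limma adjusted p = 0.0042 over 26725 transcripts, of which 38.8% passed). Its WT swing was 1.52 log2 units with a peak at ZT 17.4. The transcript Alas1-206, annotated as processed and without a coding frame, carried 31.3% and fell by 0.51 log2 units (adjusted p = 0.0074). The coding transcript Alas1-207, at 1.38 ± 0.592 TPM in WT and 1.22 ± 0.543 TPM in KO, did not pass (-0.19, adjusted p = 0.380). The 3 genes whose log2 levels followed Alas1 most closely over the 24 libraries were Txndc11 (Pearson r = 0.85), Uso1 (0.81) and Mcfd2 (0.80). These values mix genotype and time and are a description only.

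The next steps run in the cytosol and, with TPM as deposited, held close to the same level in both genotypes. Alad, porphobilinogen synthase (chromosome 4, 62509169 to 62519918, minus strand), was the steadiest member. It ranged from 42.5 through a median of 45.0 to 49.3 TPM in WT and from 40.6 through 46.7 to 51.8 TPM in KO, and the groups overlapped. The difference was 0.02 log2 units (SE 0.04, limma adjusted p = 0.653). Under median-of-ratios scaling it turned to -0.13 and passed (adjusted p = 0.0307).

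Uros, uroporphyrinogen III synthase (chromosome 7, 133686243 to 133710072, minus strand), was the least abundant member. It ranged from 13.0 through 15.0 to 17.1 TPM in WT and from 10.3 through 13.8 to 16.5 TPM in KO, with overlap. The difference of -0.11 log2 units (SE 0.05) fell just short of the threshold (limma adjusted p = 0.0509). It passed without the library labelled KO ZT4 A (-0.13, adjusted p = 0.0278) and under median-of-ratios scaling (-0.26, adjusted p = 0.000592). Uros lies over 740 bases of Bccip on the other strand (91.7 TPM on average), and no source states that counting used strand.

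Urod, uroporphyrinogen decarboxylase (chromosome 4, 116989965 to 116994413, minus strand), varied more between replicates than between genotypes. It ranged from 59.8 through 81.7 to 101 TPM in WT and from 72.6 through 87.6 to 117 TPM in KO, and the difference was 0.13 log2 units (SE 0.09, limma adjusted p = 0.190). At ZT16 the 2 WT libraries held 66.2 and 101 TPM. Much of that spread sat in 1 annotated transcript without a coding frame, Urod-210, whose share of the gene ran from 0% to 42.9% by library. The coding transcript Urod-201 was steady at 26.6 ± 1.40 TPM in WT and 27.1 ± 1.97 TPM in KO (0.03, SE 0.03, adjusted p = 0.587).

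The last steps return to the mitochondrion, and here neighbouring enzymes of the chain moved in opposite directions. Cpox, coproporphyrinogen oxidase (chromosome 16, 58670292 to 58717636, plus strand), showed the largest difference of the set. At ZT0 the WT pair gave 39.8 and 43.1 TPM and the KO pair 17.5 and 25.6 TPM. At ZT4 the values were 36.2 and 36.6 TPM against 34.0 TPM in the library labelled KO ZT4 A and 24.3 TPM in replicate B. At ZT8 they were 35.4 and 37.9 TPM against 24.5 and 22.4 TPM. So far each KO value lay below both WT values of its time. At ZT12 the libraries held 31.7 and 35.2 TPM in WT and 18.2 and 20.1 TPM in KO. At ZT16 they held 35.6 and 36.9 TPM against 23.6 and 25.8 TPM, and at ZT20 36.1 and 33.5 TPM against 20.4 and 27.3 TPM. Apart from the library labelled KO ZT4 A, KO values ran from 17.5 to 27.3 TPM and did not reach the lowest WT value of 31.7 TPM.

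Cpox averaged 36.5 ± 2.90 TPM in WT and 23.6 ± 4.48 TPM in KO (SD, n = 12 each), a KO level 0.648 times that of WT. The difference was -0.64 log2 units (SE 0.08, limma adjusted p = 1.46e-06), lower at 6 of 6 times. Among all genes tested, 13.1% differed by 0.5 log2 units or more in either direction. At single times Cpox passed at ZT0 (-0.96, SE 0.17, adjusted p = 0.00839), ZT8 (-0.64, adjusted p = 0.0224), ZT12 (-0.80, adjusted p = 0.00293) and ZT16 (-0.55, adjusted p = 0.0328). The ZT12 call held in each fit that left out 1 library. Those at ZT8 and ZT16 were lost without any 1 of their own 4 libraries (adjusted p 0.0651 to 0.148), and that at ZT0 without either WT library (0.0656 and 0.0520) or KO ZT0 replicate A (0.0808). The ZT16 call was also lost without a filter on low values (0.0612). The table lists a single transcript for Cpox, and no rhythm passed in WT (swing 0.19, adjusted p = 0.683) or KO (0.21, adjusted p = 0.680).

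Ppox, protoporphyrinogen oxidase (chromosome 1, 171275990 to 171281186, minus strand), which acts on the product of Cpox, was higher in KO. At ZT0 the WT pair gave 15.8 and 18.4 TPM and the KO pair 24.8 and 23.4 TPM. At ZT4 the values were 18.8 and 17.0 TPM against 18.8 TPM in the library labelled KO ZT4 A and 23.7 TPM in replicate B, and at ZT8 17.3 and 17.2 TPM against 24.2 and 23.0 TPM. Only at ZT4 did the genotypes overlap. At ZT12 the values were 15.7 and 16.6 TPM against 20.6 and 25.5 TPM. At ZT16 they were 14.8 and 17.1 TPM against 20.9 and 18.5 TPM, and at ZT20 16.4 and 16.2 TPM against 23.7 and 19.5 TPM. Over all times the highest WT value (18.8 TPM) lay above the lowest KO value (18.5 TPM).

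The means of Ppox were 16.8 ± 1.12 TPM in WT and 22.2 ± 2.43 TPM in KO, a KO level 1.32 times that of WT. The difference was 0.40 log2 units (SE 0.05, limma adjusted p = 4.11e-06), higher at 6 of 6 times. It was 0.25 log2 units above the median of all genes. At single times it passed at ZT0 (0.50, SE 0.13, adjusted p = 0.0251), ZT8 (0.45, adjusted p = 0.0333) and ZT12 (0.50, adjusted p = 0.00899). None of these 3 passed under median-of-ratios scaling (0.35, 0.34 and 0.26, adjusted p 0.0962, 0.0854 and 0.143). With the most abundant transcript alone the values were 0.44, 0.56 and 0.15 (adjusted p 0.172, 0.0773 and 0.587), and with protein-coding transcripts alone 0.40, 0.54 and 0.20 (adjusted p 0.136, 0.0538 and 0.375). The ZT8 call was also lost without a filter (adjusted p = 0.0582), without mitochondrial genes in the total (0.144) and without the 20 most abundant genes (0.136). Those at ZT0 and ZT8 were lost without any 1 of their own 4 libraries (adjusted p 0.0607 to 0.209), and that at ZT12 without WT ZT12 replicate A (0.0538) or KO ZT12 replicate B (0.0769). The coding transcript Ppox-201 rose from 6.60 ± 0.531 to 8.58 ± 1.57 TPM (0.36, adjusted p = 0.0017) and the intron-retaining Ppox-202 from 3.53 ± 0.768 to 5.27 ± 1.04 TPM (0.57, adjusted p = 0.000191). Ppox shares 907 bases with B4galt3 on the other strand (14.4 TPM on average).

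Fech, ferrochelatase, inserts iron into the finished ring (chromosome 18, 64452914 to 64490251, minus strand). It ranged from 44.0 through 49.4 to 57.5 TPM in WT and from 40.9 through 49.2 to 54.0 TPM in KO, and the groups overlapped (difference -0.02 log2 units, SE 0.04, limma adjusted p = 0.625). Under median-of-ratios scaling the difference was -0.17 and passed (adjusted p = 0.0074).

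Por, which passes electrons from NADPH to microsomal P450 enzymes (chromosome 5, 135670033 to 135735326, plus strand), was the most abundant member in WT, where it rose toward the end of the light phase. At ZT0 the WT pair gave 118 and 105 TPM and the KO pair 85.4 and 81.8 TPM. At ZT4 the WT pair gave 110 and 110 TPM, against 117 TPM in the library labelled KO ZT4 A and 90.1 TPM in replicate B. At ZT8 WT values rose to 151 and 146 TPM and KO values were 85.2 and 83.0 TPM. Both KO values lay below the WT pair at this time. At ZT12 the values were 167 and 139 TPM against 69.4 and 77.7 TPM, and at ZT16 147 and 137 TPM against 90.4 and 73.8 TPM. At ZT20 WT values were 112 and 95.4 TPM and KO values 81.9 and 81.1 TPM. Without the library labelled KO ZT4 A, every KO value (69.4 to 90.4 TPM) lay below the lowest WT value of 95.4 TPM.

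Por averaged 128 ± 22.4 TPM in WT and 84.8 ± 11.8 TPM in KO, a difference of -0.59 log2 units (SE 0.09, limma adjusted p = 1.38e-05), lower at 6 of 6 times. Single times passed at ZT0 (-0.41, SE 0.13, adjusted p = 0.0445), ZT8 (-0.82, adjusted p = 0.00302), ZT12 (-1.05, adjusted p = 0.000108) and ZT16 (-0.79, adjusted p = 0.00145). The last 3 held in each fit that left out 1 library. The ZT0 call was near the threshold and was lost in 14 of 24 such fits, with adjusted p up to 0.248 without WT ZT0 replicate A. It was also lost under 4 other alternatives (adjusted p 0.0511 to 0.0830). The coding transcript Por-201, 68.1% of the gene, fell from 86.4 ± 13.9 to 58.4 ± 9.12 TPM (-0.56, adjusted p = 8.54e-05).

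The rhythm of Por differed between genotypes. In WT the fitted swing was 0.61 log2 units (SE 0.12, peak at ZT 11.4, limma adjusted p = 0.0043). In KO it was 0.31 log2 units (SE 0.12, peak at ZT 2.98) and did not pass (adjusted p = 0.232). The test of the difference passed (adjusted p = 0.0437), and without the library labelled KO ZT4 A it gave 0.0246 with a KO swing of 0.17. It was lost in 17 of 24 fits that left out 1 library, the highest being 0.0969 without KO ZT12 replicate A, and under median-of-ratios scaling (0.0531). It was also lost without a filter (0.0872), without the trend and robust options of limma (0.0597), and with the most abundant transcript alone (0.0687). With time as a factor the test did not pass either (0.150). This test takes the size and timing of the rhythm together, so a difference in swing by itself was not tested. The difference in swing was -0.08 log2 units with time as a factor, against -0.30 from the cosine. Genes with the most similar log2 levels over the 24 libraries were Tmem237 (r = 0.94), Alms1-ps2 (0.93) and Ttc39c (0.93), again a description that mixes genotype and time.

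**Figure D3:**
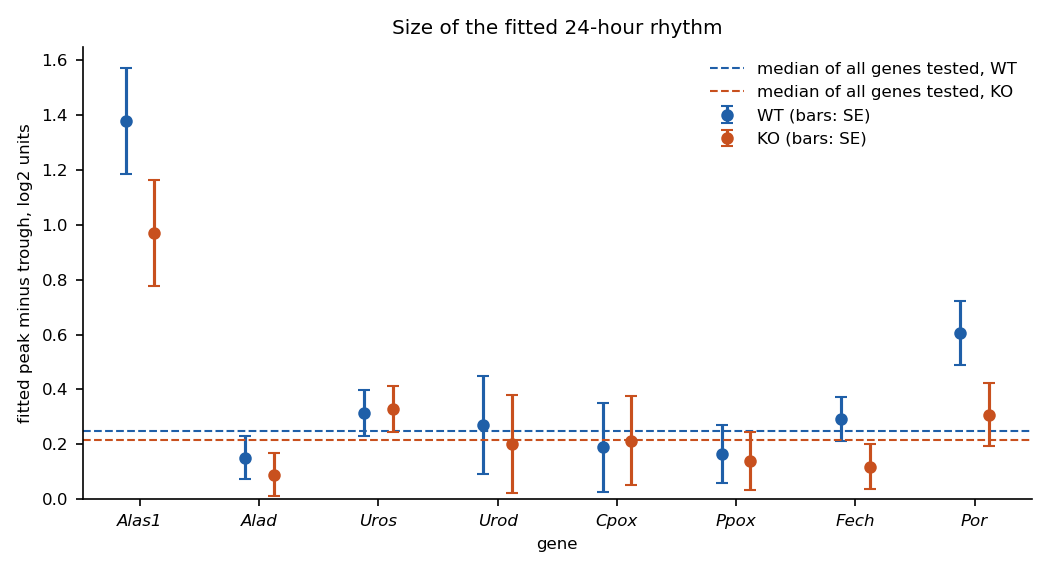
Fitted peak minus trough of a 24-hour cosine in log2 units (y axis) for each gene (x axis) in WT (blue) and KO (orange), with standard errors; dashed lines are the medians over all genes tested (0.25 in WT, 0.21 in KO). Alas1 has the largest swing in both genotypes (1.38 and 0.97), and Por has a swing of 0.61 in WT and 0.31 in KO.

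Across the set, rhythm passed for 4 of 8 genes in WT, where 13.7% of all genes passed. Beside Alas1 and Por these were Uros (swing 0.31, SE 0.08, peak at ZT 0.43, limma adjusted p = 0.0393) and Fech (0.29, SE 0.08, peak at ZT 10.6, adjusted p = 0.0471), both near the threshold and lost in 9 and 17 of 24 fits that left out 1 library (adjusted p up to 0.114 and 0.117). Without a filter on low values only Alas1 and Por passed. The Uros rhythm was also lost under median-of-ratios scaling (limma adjusted p = 0.214), without mitochondrial genes in the total (0.140) and without the 20 most abundant genes (0.137). It was lost too with the most abundant transcript alone (0.251) and with protein-coding transcripts alone (0.0859). That of Fech was lost without the trend and robust options (0.0542). Alas1 peaked 5.84 hours after Por in WT. In KO only Alas1 passed (1 of 8, background 3.64%; 3 of 8 at an unadjusted p under 0.05), and Uros had a swing of 0.33 (adjusted p = 0.0642). A difference between the rhythms was called for Por alone (1 of 8, background 0.629%; 2 of 8 unadjusted, with Alas1).

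At single times, 13 of the 48 pairs of member and time passed, all in Alas1, Cpox, Ppox and Por. By time these were 3 at ZT0 (background 13.4%), 3 at ZT8 (14.6%), 4 at ZT12 (38.2%) and 3 at ZT16 (21.5%). None passed at ZT4 or ZT20, where the background was 0% and 3.72%. ZT4 is the time of the library that went against its label: 0 genes passed by limma with it (1637 at an unadjusted p under 0.05) and 1488 without it. Without it the ZT4 differences were -0.58 for Cpox (adjusted p = 0.0575), 0.40 for Ppox (0.0813), -0.29 for Por (0.150) and -0.11 for Alas1 (0.820).

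In WT the order of levels, per transcript length, was Por, Alas1, Urod, Fech, Alad, Cpox, Ppox and Uros. The ranges over 12 libraries overlapped for each pair of neighbours in that order except Urod and Fech, and Cpox and Ppox. In KO the order began with Urod (88.9 ± 12.3 TPM) and Por (84.8 ± 11.8 TPM), and Cpox (23.6 TPM) and Ppox (22.2 TPM) stood level.

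Among 14 further genes of the pathway, which supply, import, export or regulate its parts, 6 passed the genotype test, 4 higher and 2 lower in KO, with a median of 0.11 against 0.15 over all genes. Of all genes, 60.9% passed, 50.9% higher and 10% lower in KO. Without the library labelled KO ZT4 A 8 of the 14 passed, 6 higher and 2 lower. The same fit called 8101 of 12874 genes, 83.7% of them higher. Under median-of-ratios scaling 8 passed, 3 higher and 5 lower, where 5700 of 12874 genes passed, 49.9% of those higher. Clpx, a mitochondrial unfoldase that acts on ALAS enzymes, was at 56.4 ± 15.3 TPM in WT and 92.9 ± 17.4 TPM in KO (0.74 log2 units, SE 0.14, limma adjusted p = 0.000145). Its WT swing was 1.05 log2 units with a peak at ZT 1.08, against 0.41 in KO, and the rhythms differed (adjusted p = 0.00813). Pgrmc1, a heme-binding partner of ferrochelatase and of P450 enzymes, rose from 86.2 ± 2.69 to 107 ± 10.9 TPM (0.30, adjusted p = 9.81e-06). Slc25a39, a mitochondrial glutathione carrier, fell from 475 ± 25.3 to 370 ± 42.7 TPM (-0.37, adjusted p = 1.17e-05). Abcb10 (0.12) and Slc25a37 (-0.11) also passed, and the sign of Abcb10 turned to -0.02 under median-of-ratios scaling.

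Alas2, the form of the first enzyme made in red cell precursors, was at 3.40 ± 0.952 TPM in WT and 4.27 ± 1.50 TPM in KO (0.28, adjusted p = 0.0947), far below Alas1. Markers of red cells were present. Globin and red cell precursor genes summed to 827 to 2090 TPM in WT and 1053 to 2550 TPM in KO. Of 5 tested genes, 4 passed the genotype test (3 higher, 1 lower), where 60.9% of all genes did. Under median-of-ratios scaling 0 passed as higher and 1 as lower, where 5700 of 12874 genes passed. Epb42 and Rhag were under 1 TPM, and Ahsp had no value. The part of red cells in the levels of the 8 genes was not tested.

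Of 9 genes of heme breakdown and transport, 6 passed, 4 higher and 2 lower in KO, close to the 60.9% of all genes. The inducible heme oxygenase Hmox1 fell from 23.5 ± 8.09 to 15.7 ± 10.2 TPM (-0.75, SE 0.28, limma adjusted p = 0.0256), and biliverdin reductase Blvrb fell by 0.25 log2 units. Hebp1, a heme-binding protein, rose from 46.3 ± 5.04 to 61.9 ± 6.47 TPM (0.42, adjusted p = 2.42e-05), and Blvra rose by 0.25 log2 units. Hmox2 (0.18) and Pgrmc2 (0.18) passed with small differences near the median of all genes. Under median-of-ratios scaling 4 passed, 1 higher and 3 lower, where 5700 of 12874 genes passed, 49.9% of those higher.

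Of 10 genes of iron handling, 5 passed, 3 higher and 2 lower, beside 60.9% of all genes, 50.9% higher and 10% lower. Fdxr, ferredoxin reductase, rose from 6.83 ± 0.740 to 10.1 ± 1.31 TPM (0.55, SE 0.07, adjusted p = 3.41e-06). The ferritin genes Fth1 (-0.15, adjusted p = 0.0137) and Ftl1 (-0.18, adjusted p = 0.0120) fell, while the iron regulatory gene Aco1 (0.14, turning to -0.01 under median-of-ratios scaling) and the scaffold Iscu (0.17) passed with differences near the median of all genes. Under median-of-ratios scaling 5 passed, 1 higher and 4 lower, where 5700 of 12874 genes passed, 49.9% of those higher.

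Genes of P450 enzymes, other oxygenases and electron transfer moved over a wider range, and not all of their products work with the P450 reductase. Of 14 such genes, 9 passed, 2 higher and 7 lower in KO, beside 60.9% of all genes, 50.9% higher and 10% lower, with a median of -0.20 log2 units against 0.15 over all genes. Cytochrome b5 (Cyb5a) fell from 1327 ± 116 to 997 ± 187 TPM (-0.43, limma adjusted p = 0.00022), and Sqle, squalene epoxidase, which takes electrons from the reductase, fell from 22.1 ± 3.88 to 15.3 ± 5.61 TPM (-0.59, adjusted p = 6.49e-05). Cyp2e1 fell from 667 ± 153 to 238 ± 112 TPM (-1.62, SE 0.24, adjusted p = 2.04e-05). Cyp4a12a, a fatty acid hydroxylase known to be higher in male kidney, fell from 58.5 ± 44.7 to 2.86 ± 6.06 TPM (-5.16 on the log2(TPM + 0.1) scale, adjusted p = 7.71e-07). Cyp4a14, known to be higher in female kidney, rose from 10.6 ± 9.60 to 217 ± 195 TPM (4.22, adjusted p = 6.71e-06). Cyp2j5 (527 ± 24.3 and 544 ± 94.9 TPM) and Cyp51, lanosterol demethylase (63.6 ± 15.6 and 65.8 ± 12.6 TPM), did not pass. In the library labelled KO ZT4 A, Cyp4a12a was at 21.8 TPM and Cyp4a14 at 14.4 TPM. Without it the KO mean of Cyp4a12a was 1.14 ± 1.10 TPM and the difference -5.52. Of the 7 proximal tubule markers, 2 passed as higher and 3 as lower in KO. Slc7a13 ran from 263 to 447 TPM in WT and from 1.85 to 294 TPM in KO, while Slc5a2 ran from 212 to 301 TPM in WT and from 265 to 446 TPM in KO. The part of these markers in the level of Por was not tested.

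**Figure D4:**
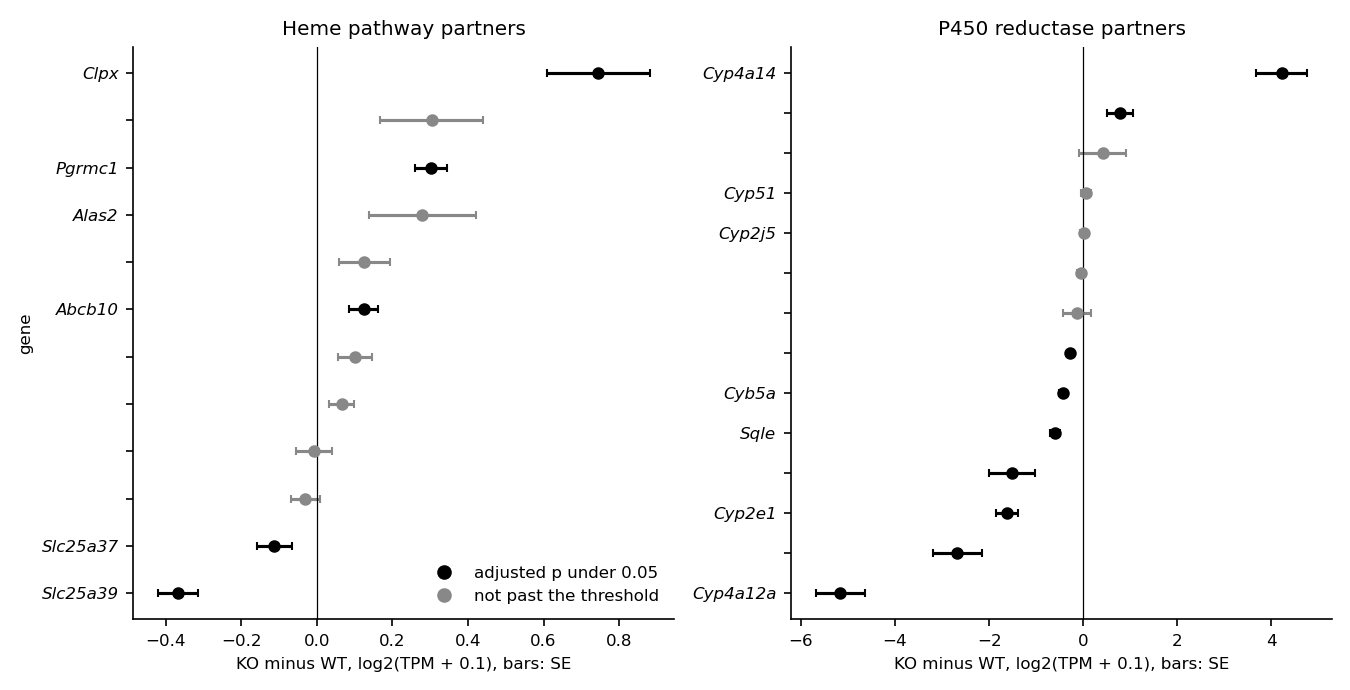
Difference of KO minus WT on the log2(TPM + 0.1) scale (x axis, bars are standard errors), each gene on its own line, with a label where the text names it. The left panel holds 12 of the 14 further heme pathway genes. The right panel (titled P450 reductase partners) holds the 14 genes of P450 enzymes, other oxygenases and electron transfer. Black passed the test, grey did not. Clpx (0.74) and Slc25a39 (-0.37) mark the ends of the left panel, and Cyp4a14 (4.22) and Cyp4a12a (-5.16) those of the right.

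Of 13 tested regulators known to act on Alas1 or Por, 9 passed the genotype test, 5 higher and 4 lower in KO, beside 60.9% of all genes, 50.9% higher and 10% lower. Nr1d2 fell from 18.2 ± 11.2 to 2.92 ± 3.77 TPM (-2.72, limma adjusted p = 1.66e-06) and Nr1d1 from 16.6 ± 15.6 to 3.93 ± 6.30 TPM (-1.83). Without the library labelled KO ZT4 A the KO mean was 1.85 ± 0.726 TPM for Nr1d2 (-2.94) and 2.12 ± 0.607 TPM for Nr1d1 (-2.02). Npas2 rose from 3.36 ± 3.01 to 19.6 ± 4.67 TPM (3.26, adjusted p = 1.95e-05). Nr1i2, the xenobiotic receptor PXR, rose from 2.14 ± 0.761 to 4.16 ± 0.823 TPM (0.97, adjusted p = 3.04e-05), and the coactivator Ppargc1a rose from 10.8 ± 0.931 to 15.2 ± 3.16 TPM (0.47, adjusted p = 9.13e-05). Nr1i3, the related receptor CAR, was under 1 TPM and was not tested. In WT 7 of the 13 were rhythmic, where 13.7% of all genes passed. Dbp peaked at ZT 10.6 (swing 6.04), Tef at ZT 10.8 (swing 1.86) and Nr1d2 at ZT 10.3. Nr1d1 peaked at ZT 8.13, Hlf at ZT 13.6, Clock at ZT 22.9 and Npas2 at ZT 0.23. Any tie of these peaks to the Por peak (ZT 11.4) was not tested. In KO 0 of the 13 passed by limma (3 at an unadjusted p under 0.05), with a background of 3.64%. The rhythms of Dbp, Tef and Npas2 differed between genotypes (3 of 13, background 0.629%). Without the library labelled KO ZT4 A 4 of 13 differed, with Nr1d1 added (limma adjusted p = 9.29e-06, against 0.0871 with it).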

How the data were processed

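Values are transcript TPM as the authors deposited them, computed with kallisto 0.42.4 per the submitters' processing notes, which name mm10 and GRCm38; the index and annotation release are not given in the sources used here. Transcripts were summed to genes by Ensembl identifier without version through GENCODE M21 (86119 of 88198 matched). The 12874 genes whose mean reached 1 TPM were analysed as log2(TPM + 0.1) in limma 3.58.1 (R 4.3.3; lmFit, eBayes with trend and robust), with Benjamini-Hochberg adjustment over all of them and a threshold of 0.05, two-sided or F tests. Models had genotype plus time as a factor, the 12 groups, or a 24-hour cosine and sine per genotype. TPM keeps no depth, so no counting interval was computed. The fits were checked on simulated data in which a small share of genes changed and the libraries had independent spread. That check does not cover a shift of most genes or a library that goes against its label.

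The members, gene lists, motifs and tests were chosen with earlier results of these data known. From each list at most 4 genes with the smallest p-values for a test were named, with Alas2, Arntl, Nr1d1, Dbp and Npas2 always; others were named after their values were seen. Some genes counted in the lists are not reported here by name. Alternatives were other pseudocounts, filters, scalings, moderation, transcript choices, time terms, a replicate block, and leaving out each library. All 24 columns were used.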

Additional observations from a re-analysis of the deposited data

Results flagged for a closer look

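The rhythm of Por differed between WT and KO by a test of the difference itself (limma, adjusted p = 0.0437). The fitted swing was 0.61 log2 units in WT and 0.31 in KO, with peaks at ZT 11.4 and ZT 2.98. The adjusted p was between 0.0182 and 0.0969 over the 24 fits that left out 1 library, and 17 of them lost the call. Without the library labelled KO ZT4 A it was 0.0246. With time as a factor the test did not pass (limma adjusted p = 0.150), nor did it without a filter (0.0872) or without the trend and robust options (0.0597). It takes size and timing together, so a difference in swing by itself was not tested. The difference in swing was -0.08 log2 units with time as a factor, against -0.30 from the cosine. The part of that library, and of KO ZT12 replicate A, in the size of the KO swing was not tested beyond these fits.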

How the results depend on the processing

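The number of members past the genotype test (4) stayed within 1.5 times under the alternatives run, except for 7 under median-of-ratios scaling. That scaling called 5700 of 12874 genes. Alad turned to -0.127 under that scaling and passed there (limma adjusted p = 0.0307). It turned to -0.045 without mitochondrial genes in the total and to -0.067 without the 20 most abundant genes, without passing. Urod turned to -0.014 under median-of-ratios scaling. These follow the shift of all genes that the scaling makes. The difference in rhythm passed for 1 member and for 0 without a filter, under median-of-ratios scaling, with eBayes without trend and robust options, with the most abundant transcript alone and with time as a factor. Rhythm in WT passed for 4 members, for 3 under median-of-ratios scaling, and for 2 without a filter and 2 with time as a factor. Rhythm in KO passed for 1, for 2 with protein-coding transcripts alone, and for 0 in the 12 KO libraries alone and 0 with time as a factor. The cause of these changes was not tested. Leaving out each library gave 4 to 5 for genotype, 2 to 4 for rhythm in WT, 0 to 2 in KO, 0 to 1 for the difference and 10 to 15 of the 48 pairs of member and time. Of 1623 values for single genes under an alternative, 1456 stayed on their side of the threshold without turning, 120 lost the call, 17 gained it and 30 turned. Direction was compared for genotype differences and for differences in swing. For the rhythm within a genotype only the side of the threshold was compared, and peak times were not. Of these 30, 26 were differences in fitted swing of members for which the difference in rhythm did not pass. That of Ppox (-0.0237) turned to 0.0039 under median-of-ratios scaling, and with the most abundant transcript alone, protein-coding transcripts alone and time as a factor to 0.158, 0.161 and 0.125. That of Urod (-0.0690) turned to 0.104, 0.111 and 0.102 under the last 3. Leaving out each library gave -0.114 to 0.0048 for Alad, -0.0942 to 0.225 for Cpox, -0.0996 to 0.108 for Ppox, -0.229 to 0.0560 for Urod and -0.0943 to 0.0555 for Uros.

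The letters A and B showed little pairing of WT and KO libraries of the same time. Their A minus B differences correlated at -0.0892 to 0.150 over genes, and 1 of 6 pairs was over 0.1. Over all 66 pairs of groups, across times and genotypes, the correlations ran from -0.323 to 0.338 (median 0.0223). Of these 66 pairs, 21 were over 0.1. With the replicate block, 4 members passed the genotype test, 4 the WT rhythm, 1 the KO rhythm, 1 the difference, and 13 of 48 pairs of member and time. The scalings without the 20 most abundant genes and the protein-coding transcripts alone were chosen after seeing the data. Depth is unknown, and 2 libraries a group limit the single-time tests.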

Other observations

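Cpox differed in direction from the genes around it. Within 1 Mb of Cpox, 7 other genes were tested, and with TPM as deposited all 7 passed the genotype test and were higher in KO (median 0.25 log2 units; 50.9% of all genes passed as higher), while Cpox was lower (-0.64). St3gal6, 146 kb away, had the smallest p-value among them (0.67, SE 0.05, limma adjusted p = 2.09e-07). Under median-of-ratios scaling 4 of the 7 had a positive difference and 2 passed as higher (median 0.11). That scaling called 5700 of 12874 genes, 49.9% of them higher. Around Uros, 9 of 11 genes passed, all 9 of them higher (median 0.33), while Uros had a difference of -0.11 that did not pass. Around Alas1, Por and Ppox, 11 of 21, 15 of 31 and 18 of 35 genes within 1 Mb passed in either direction. Around Alad, Urod and Fech these were 8 of 17, 26 of 40 and 4 of 7. Of all genes, 60.9% passed in either direction. The window was chosen after seeing the data.

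Markers of other nephron segments differed by genotype in the same libraries. With TPM as deposited, 5 of 5 collecting duct, 3 of 3 podocyte and 3 of 3 distal tubule markers passed as higher in KO. Of all genes, 50.9% did. Under median-of-ratios scaling 5, 3 and 2 of these markers did, where 5700 of 12874 genes passed, 49.9% of those higher. Of 2 loop of Henle markers, 1 was higher and 1 lower. Of 7 proximal tubule markers, 2 were higher and 3 lower (1 and 4 under that scaling), and of 4 immune markers 0 were higher and 2 lower (0 and 3).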
